A study of Mus musculus with 8 samples.

Results

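The 41 genes described here encode the extracellular matrix of skeletal muscle and the proteins that process it: 15 collagen chains, laminins, nidogens and perlecan, elastic fibre proteins and other matrix glycoproteins and proteoglycans, collagen-processing enzymes, and a matrix protease with its inhibitors. A member was any entry of the 8 deposited tables whose gene name, split at commas, was on a fixed list of 41 symbols, with the entry of highest mean kept where a name was repeated. All 41 were found among 43239 distinct gene names, and all 41 were among the 11878 genes tested. The data are RNA sequencing of quadriceps, the large extensor muscle of the thigh, from 8 female mice aged 6 months. The 4 mice labelled wild type (WT) and the 4 labelled Mss51-/- (KO) each gave 1 library, with no pooling and no treatment named. The labels place the series' question in muscle metabolism and glucose homeostasis after loss of Mss51, a mitochondrial protein of muscle. How the allele was made, whether the loss was limited to some cells, and the strain are not given in the sources used here. Levels below are in FPKM, which scales fragments by transcript length in kilobases and by the M fragments mapped (M for mega). Fold changes are given as log2, KO minus WT as labelled, on the scale of log2(FPKM + 0.5).

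Muscle fibres are wrapped in layers of connective tissue. Directly on each fibre lies a basement membrane, in which networks of laminin and collagen IV are tied together by nidogens and perlecan and anchored to receptors such as dystroglycan and integrins. Outside it, fibrils of collagen I and III, with collagen V in their core and collagen XII and XIV on their surface, carry force towards the tendon. Fibroblasts and fibro-adipogenic progenitors make most of the fibrillar collagen of muscle, and endothelial cells and the fibres themselves contribute to basement membranes.

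Mss51 was higher, not lower, in the libraries labelled KO: 201 to 340 FPKM in those libraries, against 22.9 to 37.0 FPKM in the libraries labelled WT. The targeted gene therefore goes against the labels, and every direction below is that of the libraries labelled KO. Which part of the gene was deleted is not given in the sources used here. The files hold no counts. A rough estimate of depth from low values gave 37.8 to 59.9 M fragments per library, and by it the least covered member, Timp1, had about 53.2 fragments in its lowest library, while 34 of the 41 members had at least 1000 in every library. Among markers of the labelled tissue, the fibre genes Ckm (muscle creatine kinase, a mean of 10961 FPKM) and Tnni2 (fast troponin I, 9397 FPKM) were abundant. The fast-fibre myosin Myh4 was listed at 0 in every library, and Atp2a1 at 0 in all libraries but KO replicate 2, which can be failed estimates. No batch, lane or date is given in the labels.

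None of the 41 matrix genes passed the test between the libraries labelled KO and WT, which does not show that their levels were the same. With limma and Benjamini-Hochberg adjustment over the 11878 tested genes, 0 members passed the threshold of 0.05, beside 0.0505% of all tested genes, and the members' adjusted p ranged from 0.412 to 0.999. At an unadjusted p under 0.05 there were 2 members, Postn and Timp2, beside 10.3% of all tested genes. This count was 5 without KO replicate 2 and 5 without KO replicate 4, beside 859 and 1165 of the 11878 tested genes. It was 1 without WT replicate 3, WT replicate 4 or KO replicate 3, beside 971, 1293 and 947 genes. With quantile normalization it was 5 and with equal medians 4, beside 1240 and 1094 genes. Under TPM it was 0, beside 280 genes, and with Gm22953 and Atg7 left out of the TPM sum 4, beside 1559 genes. The fitted log2 fold changes ran from -0.37 for Tnc to 0.49 for Postn. The 95% interval lay within 1 log2 unit of 0 for 40 of the 41 members, the exception being Timp1, and spanned 0 for 39. No member had groups without overlap, while every KO library lay above every WT library for 3.89% of tested genes and below every WT library for 1.61%. In bulk tissue, fewer cells of a type and less RNA per cell cannot be told apart in any of these values.

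More members had a fold change below 0 than above it, 30 against 11, where 45.6% of all tested genes lay below 0. Their median was -0.12, beside 0.02 over all tested genes. The sign of that median depended on KO replicate 3. Without it, 26 members lay above 0 and the median became 0.05, beside 0.03 over all genes. KO replicate 3 was the lowest library for most members, so higher fold changes without it follow from that choice. Without WT replicate 3, 15 members lay above 0 and the median was -0.03, beside 0.03 over all genes. Without KO replicate 2 the median was -0.22 and Postn alone lay above 0. Scaling to TPM moved the median of all tested genes to -0.18 and that of the members to -0.32, and with the genes Gm22953 and Atg7 left out of the TPM sum the medians were -0.09 and -0.23. Relative to all genes, the members' median stood at -0.14 under each of these scalings.

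**Figure D1:**
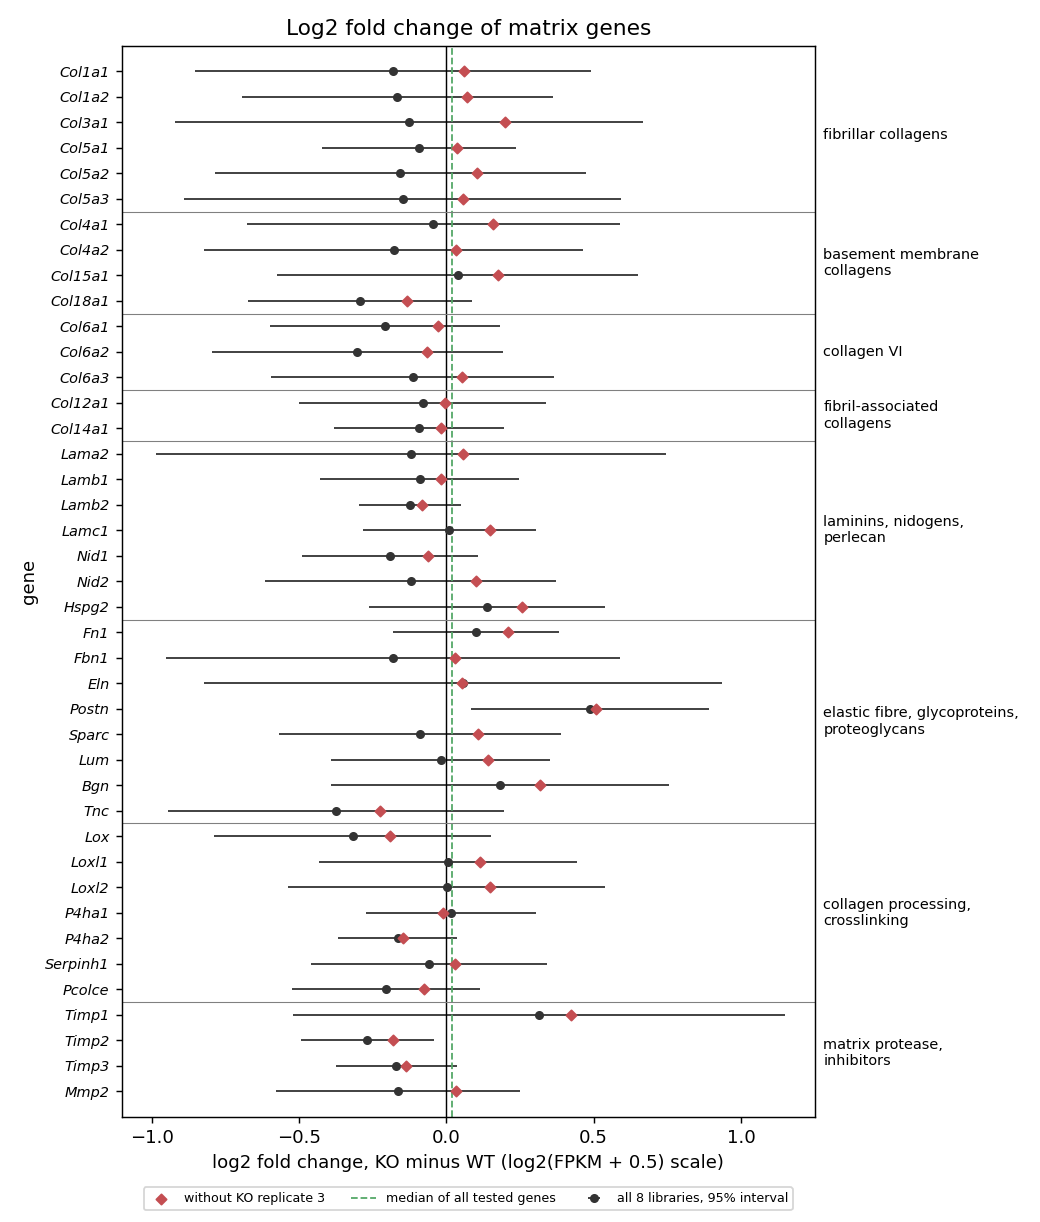
Fold change of each of the 41 matrix genes (x axis, log2(FPKM + 0.5), KO minus WT; y axis, genes by class). Black points and bars are the limma estimate from all 8 libraries with its 95% interval, red diamonds the estimate without KO replicate 3, and the dashed line the median of all tested genes at 0.02. The intervals of 39 genes span 0, and all 6 fibrillar collagens pass from below to above 0 without KO replicate 3.

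The members varied together from library to library. KO replicate 3 had the lowest level of the KO libraries for 33 of 41 members, beside 29.4% of all tested genes, and the lowest of all 8 libraries for 30, beside 17.1%. KO replicate 2 had the highest level of the KO libraries for 30 members, beside 26.3% of all tested genes. In the WT group, replicate 3 was the highest for 29 members, beside 28.6% of all tested genes, and replicate 2 was the lowest for 23, beside 31.9%. These libraries were picked out after their values were seen.

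The median member, as log2 minus its WT mean, stood at 0.03, -0.16, 0.21 and -0.08 in WT replicates 1 to 4 and at -0.23, 0.21, -0.53 and 0.08 in KO replicates 1 to 4. The same median over all tested genes lay between -0.03 and 0.08 in every library. Summed over the 41 members, the FPKM were 1620, 1404, 1798 and 1479 in the WT libraries and 1398, 1914, 1071 and 1658 in the KO libraries. The KO libraries thus held both the highest and the lowest sum, and the WT libraries lay between them. KO replicate 2 exceeded KO replicate 3 by a median of 1.76-fold over the members and 1.04-fold over all tested genes.

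**Figure D2:**
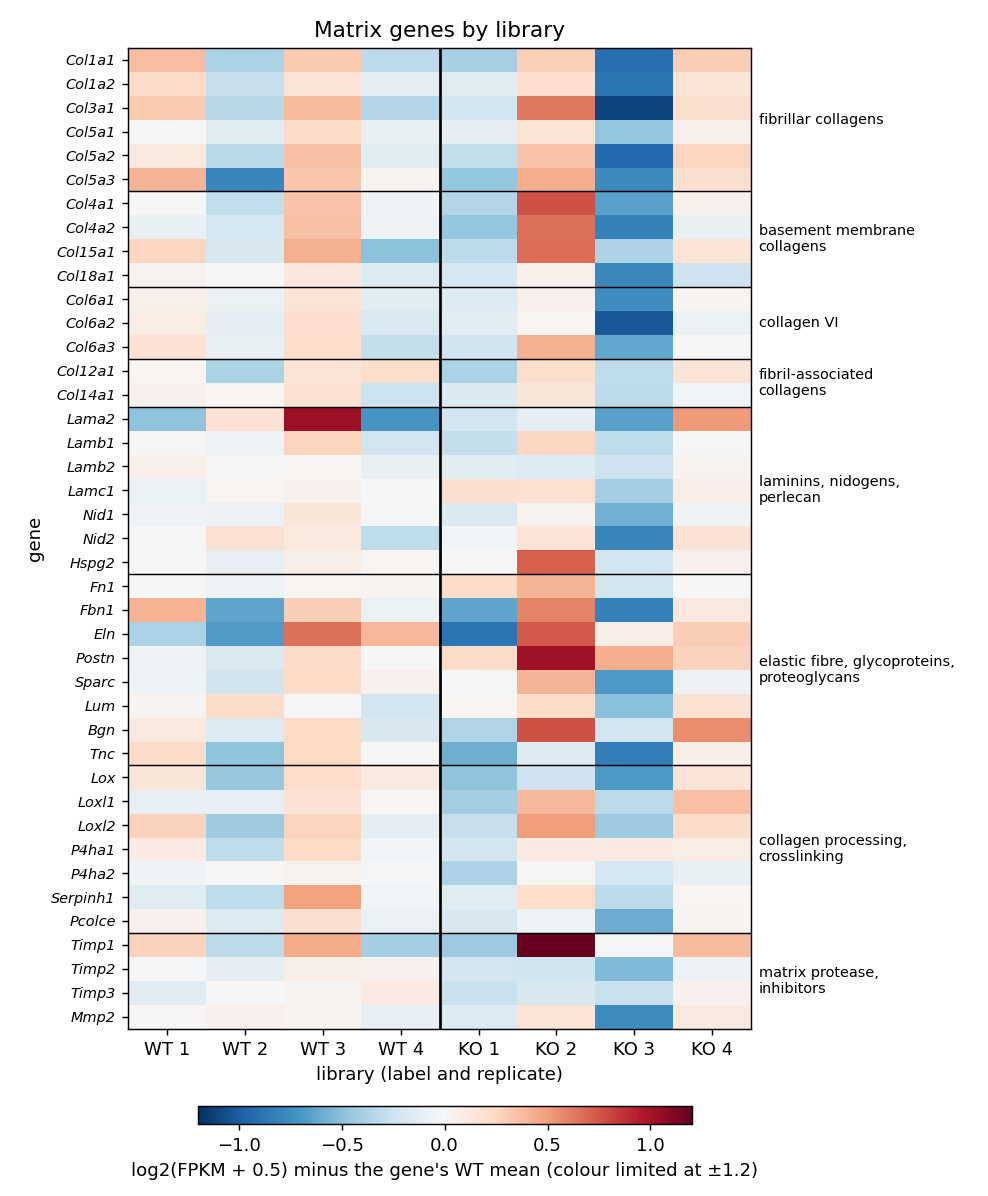
Each of the 41 matrix genes (rows, by class) in each of the 8 libraries (columns), as log2(FPKM + 0.5) minus the mean of the gene over the 4 WT libraries, with colour limited at 1.2 in either direction. The column of KO replicate 3 is blue for most genes and that of KO replicate 2 red, and the median member stands at -0.53 and 0.21 in these libraries.

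The DNA upstream of 3 members is printed because they mark the ends of the values: Col3a1 is the collagen with the highest level, and Postn and Tnc have the highest and the lowest fold change. Each run is the 250 bases before the RefSeq transcription start (build GRCm38.p6), 5′ to 3′ on the gene's strand, with the letters TATAAA and, in Tnc, GGGCGG in capitals. The windows are chr1:45311288-45311537 on the plus strand, chr3:54360857-54361106 on the plus strand and chr4:64047016-64047265 on the minus strand.
Col3a1: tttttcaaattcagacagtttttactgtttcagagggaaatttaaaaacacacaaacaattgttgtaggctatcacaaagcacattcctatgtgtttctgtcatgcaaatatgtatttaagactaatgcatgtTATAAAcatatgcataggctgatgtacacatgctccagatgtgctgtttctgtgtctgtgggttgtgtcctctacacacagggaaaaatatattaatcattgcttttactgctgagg
Postn: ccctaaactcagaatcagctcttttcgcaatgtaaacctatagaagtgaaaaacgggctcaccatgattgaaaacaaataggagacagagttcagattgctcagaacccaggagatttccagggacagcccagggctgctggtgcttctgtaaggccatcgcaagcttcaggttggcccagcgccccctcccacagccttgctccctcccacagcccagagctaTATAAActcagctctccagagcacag
Tnc: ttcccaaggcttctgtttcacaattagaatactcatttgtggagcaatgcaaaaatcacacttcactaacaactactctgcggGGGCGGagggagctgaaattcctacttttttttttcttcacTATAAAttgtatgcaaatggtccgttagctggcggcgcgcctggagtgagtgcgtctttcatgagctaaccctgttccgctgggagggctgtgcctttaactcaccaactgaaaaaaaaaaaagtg
The TATAAA letters began 26 bases before the start in Postn, 117 in Col3a1 and 126 in Tnc, and the GGGCGG letters of Tnc began 167 bases before it. RefSeq windows were held for 28 of the 41 members, and 1 was used per member. Of the 28 windows, 14 were free of annotated exons, the 3 printed ones among them. The others overlap exons, and those of Col4a1, Col4a2 and Fbn1 do so over all 250 bases. On either strand, TATAAA was present in 3 of the 28, these same genes, and in 12.4% of all 32851 windows. CCAAT was present in 9 of the 28 and in 33.8% of all windows. GGGCGG was present in 19 of the 28, or 67.9%, and in 32.7% of all windows. TGACTCA was present in 1, Col6a1, and in 4.46% of all windows. These are matches of letters only. KO replicate 3 was the lowest KO library for Col3a1 and Tnc, and for Postn it was the second highest. The 3 printed genes were picked by their values, and a link between these letters and the levels was not tested.

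The fibrillar collagens form the tensile fibrils of the endomysium and perimysium. They are Col1a1 and Col1a2, the chains of collagen I, Col3a1, the chain of collagen III, and Col5a1, Col5a2 and Col5a3, chains of the collagen V that helps start fibrils and set their width. Together they took 16.8% of the members' summed FPKM. None of the 6 passed the test. All 6 had a fold change below 0, with a median of -0.15, and all 6 lay above 0 without KO replicate 3, with a median of 0.07. Col3a1 had the highest level of any collagen chain, at 136, 87.1, 142 and 85.6 FPKM in the WT libraries and 93.7, 170.2, 50.7 and 125.03 FPKM in the KO libraries. Both groups were widely spread, and the WT range lay inside the KO range, 3.36-fold from KO replicate 3 to KO replicate 2. The fit gave -0.13 as log2 fold change (SE 0.35, limma, adjusted p = 0.93). Col1a2 stood at 95.01, 66.8, 91.0 and 74.8 FPKM in the WT and 73.3, 93.2, 44.0 and 90.1 FPKM in the KO libraries. All KO libraries but replicate 3 lay within the WT range, and the fitted log2 difference was -0.17 (SE 0.23, limma, adjusted p = 0.844). Col1a1 had means of 43.7 ± 12.0 FPKM in WT and 39.7 ± 14.9 FPKM in KO (SD, n = 4). The collagen V chains were lower, with means over the 8 libraries of 10.8 FPKM for Col5a1, 9.22 for Col5a2 and 8.37 for Col5a3. In Col5a3 it was WT replicate 2, at 4.66 FPKM, that was the lowest of all libraries.

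Among collagens of the basement membrane, Col4a1 and Col4a2 form the collagen IV network, and Col15a1 and Col18a1 encode proteoglycan collagens at its outer face, of which Col18a1 also gives rise to endostatin. None of the 4 passed the test, and 3 of the 4 lay below 0 (median -0.11; 0.10 without KO replicate 3). Col4a1 was measured at 33.0, 26.8, 41.8 and 31.8 FPKM in the WT and 25.7, 56.3, 20.8 and 34.3 FPKM in the KO libraries. KO replicate 2 was above and KO replicates 1 and 3 were below every WT library, and the fitted log2 difference was -0.04 (SE 0.28, limma, adjusted p = 0.97). Col18a1 had the lowest p of the class. Its FPKM were 5.08, 4.91, 5.43 and 4.36 in the WT and 4.18, 5.18, 2.69 and 4.06 in the KO libraries, so that KO replicate 2 was above 3 of the 4 WT libraries and the other KO libraries were below all of them. The log2 fold change was -0.29 with a 95% interval from -0.67 to 0.09 (limma, adjusted p = 0.593). Col15a1 was at 19.2 ± 5.53 FPKM in WT and 20.04 ± 7.29 FPKM in KO (SD, n = 4).

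Collagen VI forms beaded filaments that link the basement membrane to the interstitial matrix, and mutations in its chains cause congenital muscular dystrophies. Its chains Col6a1, Col6a2 and Col6a3 all lay below 0, and none passed the test. Col6a2 had both the highest level and the lowest p of the 3. It stood at 40.8, 35.3, 44.1 and 33.7 FPKM in the WT and 34.8, 38.8, 18.6 and 36.1 FPKM in the KO libraries. KO replicate 3 was far below the rest, and the other KO libraries lay within the WT range. The fitted log2 difference was -0.30 (SE 0.22, limma, adjusted p = 0.685) and -0.06 without KO replicate 3. The 3 chains had a median of -0.21, and of -0.03 without that library.

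Col12a1 and Col14a1 encode collagens that sit on the surface of collagen I fibrils. Neither passed the test. Col14a1 stood at 9.71, 9.48, 10.6 and 7.699 FPKM in the WT and 8.19, 10.4, 7.42 and 9.13 FPKM in the KO libraries. The groups overlapped over nearly all of their range, and the fitted log2 difference was -0.09 (SE 0.13, limma, adjusted p = 0.842). Col12a1 was at 3.51 ± 0.691 FPKM in WT and 3.31 ± 0.793 FPKM in KO (SD, n = 4). This class differed least between KO replicates 2 and 3 among the collagens, 1.43-fold in summed FPKM against 2.61-fold for the fibrillar collagens, 2.52-fold for the basement membrane collagens and 1.95-fold for collagen VI.

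**Figure D3:**
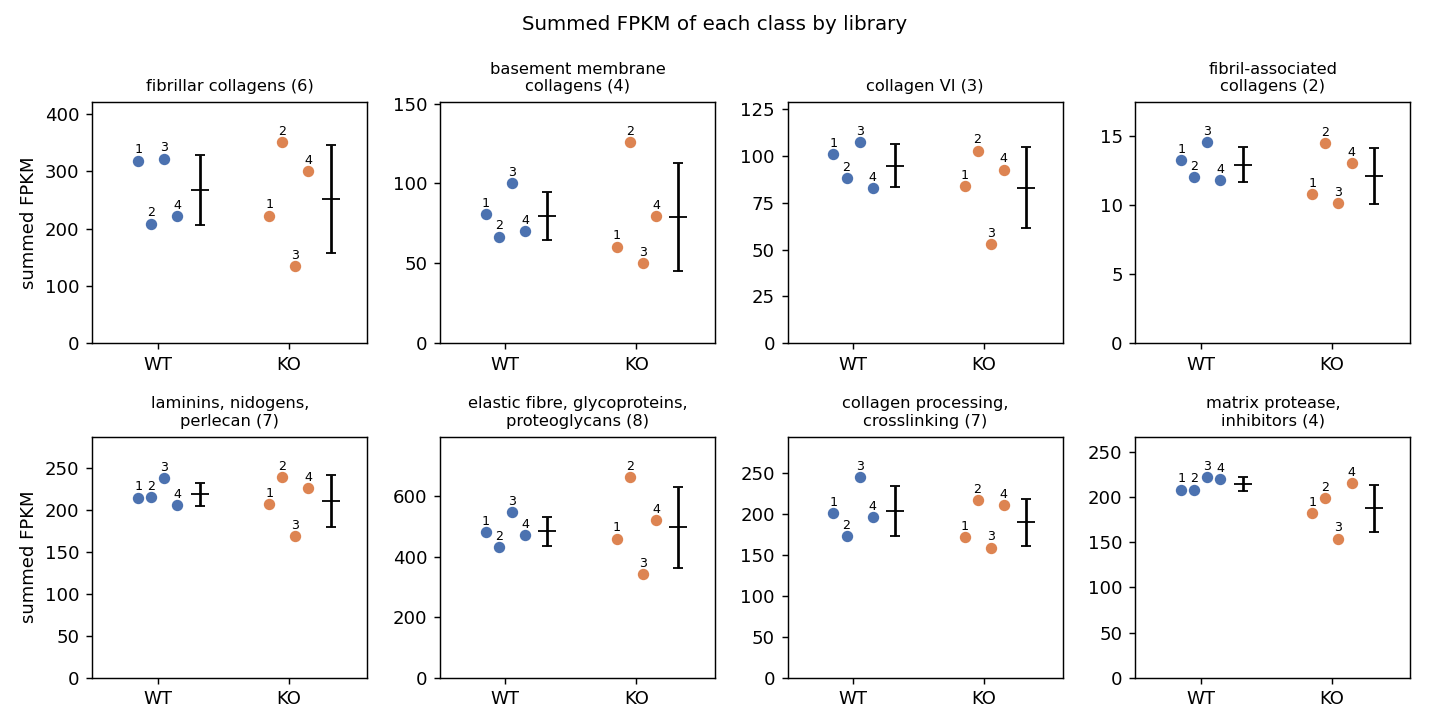
Summed FPKM (y axis, from 0) of the 8 classes of matrix genes in the WT (blue) and KO (orange) libraries, with replicate numbers beside the points, the number of genes in each title, and the mean and SD of each group as bars. In every panel KO replicate 3 is the lowest KO library, and the sums of the fibrillar collagens run from 134 FPKM in KO replicate 3 to 351 FPKM in KO replicate 2.

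The laminins, nidogens and perlecan of the basement membrane took 13.9% of the members' summed FPKM. Lama2, the laminin chain whose loss causes a congenital muscular dystrophy, joins Lamb1 or Lamb2 and Lamc1 in the laminins of muscle, Nid1 and Nid2 encode the nidogens, and Hspg2 encodes perlecan. None of the 7 passed the test, and 5 lay below 0 (median -0.12; 0.06 without KO replicate 3). Lamb2 had the highest level and the lowest p of the class, and its entry in the files is joined with the neighbouring gene Usp19. It stood at 85.5, 82.5, 83.0 and 76.7 FPKM in the WT and 74.8, 73.1, 69.0 and 84.1 FPKM in the KO libraries. All KO libraries but replicate 4 were below every WT library. The log2 fold change was -0.12 with a 95% interval from -0.30 to 0.05 (limma, adjusted p = 0.621). Lama2 ranged 3.54-fold within WT, from 5.56 FPKM in replicate 4 to 19.7 FPKM in replicate 3, and 2.34-fold within KO. Lamc1, in contrast, lay between 33.8 and 36.9 FPKM in the WT libraries. Hspg2 reached 59.0 FPKM in KO replicate 2 and lay between 30.7 and 37.7 FPKM in the other libraries. The means over all libraries were 9.39 FPKM for Lamb1, 36.25 for Nid1 and 5.87 for Nid2.

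The elastic fibre proteins, glycoproteins and proteoglycans were the largest class by level, with 31.8% of the members' summed FPKM. None of the 8 passed the test, and 4 lay on each side of 0, with a median of 0.02. Without KO replicate 3, 7 of the 8 lay above 0 (median 0.13), and without KO replicate 2, 1 did (median -0.13). Sparc, a collagen-binding glycoprotein that aids collagen assembly, had the highest level of all members, at 233, 204, 284 and 249 FPKM in the WT and 238, 320.1, 149 and 229 FPKM in the KO libraries. KO replicates 2 and 3 lay on either side of the WT range. Between the groups, the log2 difference was -0.09 (SE 0.21, limma, adjusted p = 0.917).

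Postn encodes periostin, a glycoprotein of remodelling connective tissue that binds collagen and integrins. It stood at 4.78, 4.39, 5.96 and 4.96 FPKM in the WT and 5.94, 10.6, 6.91 and 6.15 FPKM in the KO libraries. All KO libraries but replicate 1 were above every WT library, and replicate 1 fell just short of WT replicate 3. Its log2 difference between the groups was 0.49 (SE 0.18), with a 95% interval from 0.08 to 0.89 (limma, unadjusted p = 0.0231, adjusted p = 0.412). An exact two-sided permutation test over the 70 assignments of the libraries gave p = 0.0571, where 0.0286 is the smallest possible. KO replicate 3 was not low for Postn, with more than KO replicates 1 and 4, and the fold change stayed between 0.31 and 0.57 with each library left out in turn.

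Tnc, which encodes tenascin-C, a glycoprotein of myotendinous junctions and injured muscle, lay at the other end. It stood at 1.83, 0.927, 1.85 and 1.51 FPKM in the WT and 0.826, 1.29, 0.624 and 1.59 FPKM in the KO libraries. KO replicates 1 and 3 were below every WT library, while KO replicate 4 was above WT replicates 2 and 4. It differed by -0.37 on the log2 scale (SE 0.25, limma, adjusted p = 0.658). Fn1, which encodes fibronectin, was nearly constant in WT, at 56.2 ± 1.61 FPKM, and was at 61.1 ± 11.5 FPKM in KO (SD, n = 4). Bgn, the small proteoglycan biglycan, was at 80.5 ± 12.0 FPKM in WT and 95.9 ± 36.4 FPKM in KO, and Lum, its relative lumican, at 73.0 ± 9.17 and 72.9 ± 15.3 FPKM. Eln, elastin, and Fbn1, fibrillin-1, had wide ranges in both groups, 2.65-fold and 2.13-fold in WT and 3.23-fold and 2.77-fold in KO.

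Of the 7 genes of collagen processing, P4ha1 and P4ha2 encode the catalytic subunits that hydroxylate prolines of collagen, Serpinh1 its chaperone in the endoplasmic reticulum, Pcolce an enhancer of the protease that trims procollagen, and Lox, Loxl1 and Loxl2 the lysyl oxidases that crosslink collagen and elastin. None passed the test, and 4 lay below 0 (median -0.06; -0.01 without KO replicate 3). Pcolce, in an entry joined with Fbxo24, had the highest level. It stood at 69.1, 59.5, 76.5 and 63.1 FPKM in the WT and 58.3, 63.9, 44.1 and 68.3 FPKM in the KO libraries. KO replicate 3 was clearly the lowest, KO replicate 1 fell just below WT replicate 2, and the fitted log2 difference was -0.20 (SE 0.14, limma, adjusted p = 0.668). P4ha2 had the lowest p of the class and one of the narrowest spreads of any member. It stood at 18.6, 19.3, 19.7 and 18.9 FPKM in the WT and 14.7, 19.4, 16.4 and 17.9 FPKM in the KO libraries. All KO libraries but replicate 2 lay below every WT library. The log2 fold change was -0.17 with a 95% interval from -0.37 to 0.04 (limma, adjusted p = 0.558). P4ha1 did not share the low level in KO replicate 3: it stood at 30.8 FPKM there and at 24.6 FPKM in KO replicate 1. Lox had the lowest fold change of the class, -0.32 (limma, adjusted p = 0.649), with means of 6.26 ± 1.296 FPKM in WT and 4.97 ± 1.43 FPKM in KO (SD, n = 4). Serpinh1 had 82.9 FPKM in WT replicate 3 and 47.3 to 68.5 FPKM elsewhere.

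Mmp2, a gelatinase that cleaves collagen IV and denatured collagen, and its inhibitors Timp1, Timp2 and Timp3 made up the last class. None of the 4 passed the test, and 3 lay below 0 (median -0.17; -0.05 without KO replicate 3). Timp2 inhibits Mmp2 and also takes part in activating its precursor. It stood at 104, 97.1, 109 and 109 FPKM in the WT and 88.8, 88.7, 72.3 and 99.4 FPKM in the KO libraries. All KO libraries but replicate 4 were below every WT library, and replicate 4 was above WT replicate 2 alone. Its log2 difference between the groups was -0.27 (SE 0.10), with a 95% interval from -0.49 to -0.04 (limma, unadjusted p = 0.0246, adjusted p = 0.422). The exact two-sided permutation test gave p = 0.0571, and the fold change stayed between -0.33 and -0.18 with each library left out in turn. Mmp2 itself lay between 37.7 and 42.1 FPKM in the WT libraries and at 36.02, 45.3, 23.9 and 43.6 FPKM in the KO libraries. KO replicate 3 was thus far below a tight WT group and KO replicate 1 just below it, while KO replicates 2 and 4 were above it. Timp3 was at 67.6 ± 4.60 FPKM in WT and 60.2 ± 6.64 FPKM in KO (SD, n = 4). It lies within an intron of Syn3 on the other strand, and reads of the 2 genes cannot be told apart if strand was not used. Timp1 had a wide 95% interval, from -0.52 to 1.15 log2, with 5.85 FPKM in KO replicate 2 and 1.37 to 2.95 FPKM elsewhere. It likewise lies within Syn1 and beside Araf, in a single locus of the files, so its value is uncertain.

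The spread between libraries was wider for most members than for the median gene. The SD of log2(FPKM + 0.5) within a group, pooled over both groups, had a median of 0.317 over the members and 0.177 over all tested genes, and 37 of 41 members were above the latter. The median member was at the 83.0th percentile of tested genes. The widest were Eln at 0.657, Lama2 at 0.646, Timp1 at 0.611 and Col3a1 at 0.594. The narrowest were Lamb2 at 0.096, P4ha2 at 0.120, Timp3 at 0.128 and Timp2 at 0.145, which lay below the median of all genes.

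This spread lay mainly in the KO group. The median SD over members was 0.213 in WT and 0.405 in KO, beside 0.160 and 0.172 over all tested genes. The KO SD was above the WT SD for 38 of 41 members, the exceptions being Lama2, Serpinh1 and P4ha1, beside 54.6% of all tested genes. It was above for 31 members without KO replicate 2 (51.3% of all tested genes), for 28 without KO replicate 3 (52.9%) and for 22 without both (47.4%), when the median KO SD was 0.196. Those libraries were picked as the extremes of their group, so a smaller KO SD without them follows from that choice. The difference in spread has no test, since members share their libraries and are not replicates.

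**Figure D4:**
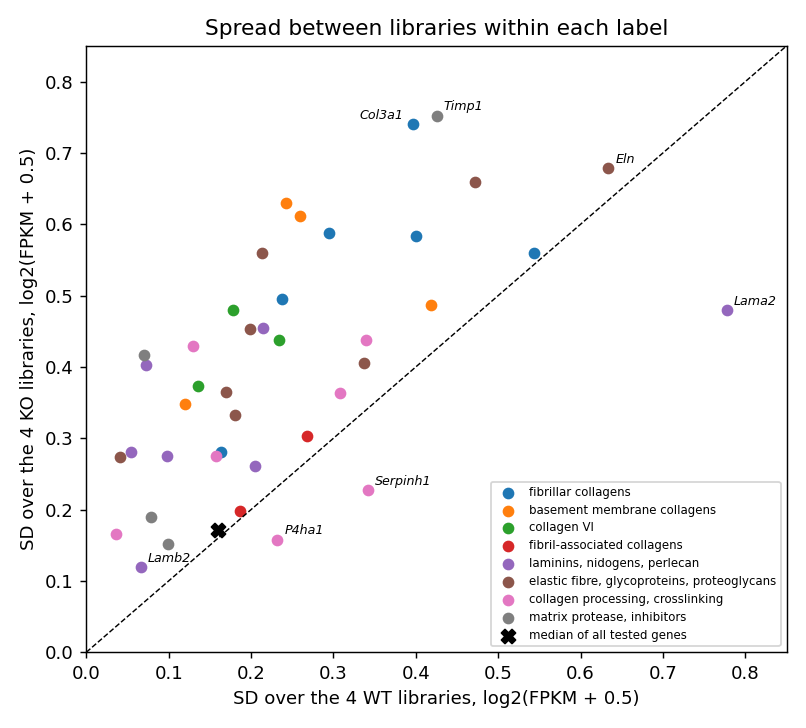
SD of log2(FPKM + 0.5) over the 4 WT libraries (x axis) and over the 4 KO libraries (y axis) for each of the 41 matrix genes, coloured by class, with the line of equal SD (dashed) and the median of all tested genes (cross, 0.160 and 0.172). Most genes lie above the line, and Lama2, Serpinh1 and P4ha1 lie below it.

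Chains that assemble into a common molecule were compared by their ratio. For 8 pairs, chosen after the values were seen, the ratio of FPKM was taken in each library. In 4 of the 8, the pooled SD of the log2 ratio was below that of both chains: 0.180 for Col1a1 to Col1a2, 0.0586 for Col4a1 to Col4a2, 0.0995 for Col6a1 to Col6a2 and 0.174 for Col6a3 to Col6a1. The chains of these pairs had SDs of 0.286 to 0.507. Most members varied together from library to library, and ratios of chains from different molecules were not taken. A tight ratio is therefore not shown to be particular to chains that assemble together. Col1a1 stood at 0.526 ± 0.0646 of Col1a2 in WT and 0.521 ± 0.0634 in KO (SD, n = 4), although the collagen I molecule holds more of the Col1a1 chain. Col6a1 and Col6a2 stood near parity, at ratios of 0.965 ± 0.0294 and 1.03 ± 0.0977.

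The collagen IV pair had the tightest ratio, and it was the only pair of the 8 whose groups did not overlap. Col4a1 was 1.63, 1.43, 1.51 and 1.53 times Col4a2 in the WT libraries and 1.65, 1.64, 1.72 and 1.69 times in the KO libraries. Each KO ratio was above each WT ratio, though WT replicate 1 came close. The means were 1.52 ± 0.0805 and 1.68 ± 0.0387 (SD, n = 4), a log2 difference of 0.14. The exact two-sided permutation p was 0.0286, the smallest possible, and 0.229 after Benjamini-Hochberg adjustment over the 8 pairs, so the difference did not pass. The exact permutation p of the other pairs lay between 0.257 and 0.971. Col4a1 and Col4a2 lie head to head on chromosome 8 on opposite strands, with RefSeq starts at 11312826 and 11312805 that leave 22 bases shared (build GRCm38.p6), and the files give both 1 locus. How the authors' counting divided reads there is not given in the sources used here. Laminin ratios were looser: Lama2 to Lamc1 ranged from 0.155 to 0.532 in WT, and Lamb1 to Lamc1 and Lamb2 to Lamc1 had means of 0.271 and 2.30 in WT and 0.253 and 2.11 in KO.

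**Figure D5:**
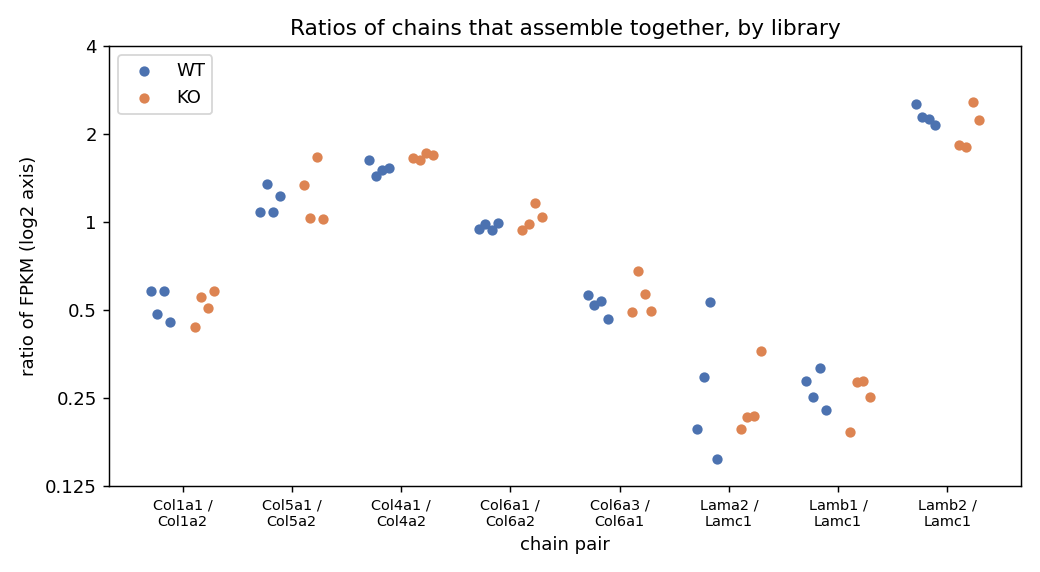
Ratio of FPKM (y axis, log2 scale) for 8 pairs of chains of common molecules (x axis), 1 point per library, WT in blue and KO in orange, replicates 1 to 4 from left to right. The Col4a1 to Col4a2 points are the tightest, at 1.43 to 1.63 in WT and 1.64 to 1.72 in KO, and those of Lama2 to Lamc1 the widest.

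Genes of the same pathway outside the 41 gave no calls either. Over all tested genes, 0.0505% passed, 10.3% had an unadjusted p under 0.05 (limma) and 45.6% lay below 0. Of 24 other collagen chains, 8 were tested and 0 passed (limma; 0 at an unadjusted p under 0.05), with 4 above and 4 below 0. Those with the smallest p were Col8a1 at a log2 fold change of 0.45, Col11a2 at 0.50 and Col8a2 at -0.38. Of 38 other matrix proteins, 35 were tested, 0 passed and 2 had an unadjusted p under 0.05, with 23 below 0 and a median of -0.12. The smallest p belonged to Comp, a cartilage and tendon glycoprotein, at -0.71, to Efemp2, a fibulin needed for elastic fibres, at -0.30, and to the laminin chain Lamb3 at 0.67. Of 32 other processing enzymes and proteases, 28 were tested, 0 passed and 1 had an unadjusted p under 0.05, with 13 above and 15 below 0. Adamts1, a protease of proteoglycans, stood at -0.34, the inhibitor Timp4 at 0.58 and Mmp19 at -0.24. Of 22 matrix receptors, 20 were tested and 0 passed (0 at an unadjusted p under 0.05), with 13 below 0. The integrin chains Itga6, Itgb5 and Itgb1 had the smallest p, at 0.46, -0.13 and -0.14. Low levels in KO replicate 3 were not limited to the 41 members. It was the lowest KO library for 5 of the 8 other collagens, 22 of the 35 other matrix proteins, 19 of the 28 processing genes and 9 of the 20 receptors. Over all tested genes this share was 29.4%. KO replicate 2 was the highest KO library for 2, 13, 11 and 9 of them, beside 26.3% of all tested genes.

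Markers of cells that make matrix followed the members' pattern in KO replicates 2 and 3 only in part. Over all tested genes, KO replicate 3 was the lowest KO library for 29.4% and KO replicate 2 the highest for 26.3%. Of the same genes, 10.3% had an unadjusted p under 0.05 (limma) and 45.6% lay below 0. Of 10 fibroblast markers, 8 were tested and 0 passed (1 at an unadjusted p under 0.05). Their sum was 1316 ± 137 FPKM in WT and 1200 ± 164 FPKM in KO (SD, n = 4). At 999 FPKM it was lowest in KO replicate 3, which was also the lowest KO library for 7 of the 8. KO replicate 2 was the highest KO library for 3 of the 8, with a sum of 1231 FPKM, and 6 lay below 0. Gsn and Ly6a had the highest levels, with means of 766 and 170.6 FPKM, and Tcf21 was listed at 0 in every library. Gsn carried most of the fibroblast sum, with means of 842 FPKM in WT and 690 FPKM in KO, so that sum largely reflects 1 gene. Ly6a went the other way, with means of 154 and 188 FPKM. A sum without Gsn was not taken. Tendon markers were led by Fmod and Thbs4 at 46.0 and 25.5 FPKM. Of 8 tested, 8 lay below 0 and 0 passed the threshold (2 at an unadjusted p under 0.05). Their median log2 fold change was -0.49 (-0.34 without KO replicate 3). Fmod, Thbs4 and Comp were also among the other matrix proteins above, so the 2 lists are not independent. Comp was 1 of the 2 genes at an unadjusted p under 0.05 in each of these lists. The sum of the tendon markers ranged from 105 to 184 FPKM in WT and from 68.3 to 164 FPKM in KO, lowest in KO replicates 3 and 1. KO replicate 3 was the lowest KO library for 3 of the 8 tested, and KO replicate 2 was the highest for 0. Endothelial markers, led by Egfl7 and Pecam1 at 46.6 and 24.9 FPKM, summed to 216 FPKM in KO replicate 2 and to 122 to 178 FPKM elsewhere. The entry of Egfl7 is joined with Fam69b and Gm20532, so its value is not that of Egfl7 alone. KO replicate 2 was the highest KO library for 6 of the 8 and KO replicate 3 the lowest for 2, and 6 lay above 0.

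Of the remaining lists, pericyte and smooth muscle markers, led by Rgs5 and Abcc9 (99.1 and 45.7 FPKM), summed to 206 to 247 FPKM in WT and 176 to 239 FPKM in KO, lowest in KO replicate 3. KO replicate 3 was the lowest KO library for 5 of the 8 and KO replicate 2 the highest for 5, and 6 lay below 0. Macrophage markers, led by C1qa and C1qb (51.8 and 47.5 FPKM), summed to 146 to 196 and 144 to 214 FPKM. The lowest sum, 144.3 FPKM in KO replicate 3, was close to 145.5 FPKM in WT replicate 1. The highest, 214.3 FPKM in KO replicate 2, was close to 213.1 FPKM in KO replicate 4. KO replicate 3 was the lowest KO library for 7 of the 8 and KO replicate 2 the highest for 3, and 5 lay above 0. Adipocyte markers, led by Cfd and Retn (268 and 36.1 FPKM), summed to 326 to 429 and 283 to 456 FPKM, with 5 of 6 below 0, 0 past the threshold and 3 at an unadjusted p under 0.05. Cfd carried most of that sum, and the median log2 fold change of the list was -0.41 (-0.42 without KO replicate 3). Among all tested genes, 45.6% lay below 0 and 10.3% had an unadjusted p under 0.05 (limma). Muscle fibre markers summed to 22469 to 28727 and 24452 to 30966 FPKM, the last in KO replicate 2, whose sum holds the Atp2a1 value missing from the others. The part of these cell types in the members' values was not tested.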

How the data were processed

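RNA of quadriceps was sequenced from 8 mice, 1 library each. The authors deposited 1 table per library in FPKM, per the file headers. Per the submitters' processing notes, Cufflinks 2.2.1, TopHat2 2.1.1, Bowtie2 2.2.6 and FastQC were used with the genome build mm10, in roles not given there. Annotation, filters and strand setting are not given in the sources used here. FPKM divide by mapped fragments and transcript length, so entries that share a locus depend on how fragments were divided.

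Of 46036 entries per table, 2379 had no name and were left out; they carried 65.8% to 93.2% of the summed FPKM. Without counts, depth was only roughly estimated and no counting interval is given. Groups followed the genotype labels. Genes averaging 1 FPKM or more over the libraries were fitted as log2(FPKM + 0.5) with limma 3.58.1 in R 4.3.3 (mean trend, two-sided, genotype alone), adjusted by Benjamini-Hochberg over all tested genes. Single values had exact permutation tests. The script was tested on simulated data. Class sums, SDs and ratios are descriptions. Genes named with values in every library were those with the highest mean or smallest p of each class and, added after values were seen, Tnc and Mmp2; up to 3 genes per pathway list with the smallest p and up to 2 markers per cell type with the highest mean were named. The values of 1 marker list are not reported here. Members, classes and lists were chosen with earlier results of these data known. Locations came from GENCODE M21 and promoter windows from RefSeq (GRCm38.p6). Alternatives were other pseudocounts (0.1 and 1), filters (none, and a mean of 5 FPKM), TPM, quantile and median scaling, robust variances, array weights, a replicate block, sums of repeated entries and each library left out.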

Additional observations from a re-analysis of the deposited data

Results flagged for a closer look

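Among 114 groups of 4 libraries, the levels and ratios of the members were examined for a library that stands apart from the other 3 of its group by Dixon's criterion, which chance meets in about 1 of 20 groups, and 2 met it. P4ha1 stood at 24.56 FPKM in KO replicate 1, where the other KO libraries lay between 30.62 and 30.76 FPKM; that group was unusually tight, and WT libraries ranged from 23.1 to 33.9 FPKM. The ratio of Lama2 to Lamc1 stood at 0.3617 in KO replicate 4, where the other KO libraries lay between 0.1963 and 0.2172, inside the WT range of 0.155 to 0.532.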

How the results depend on the processing

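The count of members past the threshold was 0 in all 20 alternatives, and the smallest adjusted p of a member in any of them was 0.236 (limma, Postn without KO replicate 1). The count of all genes past the threshold was 6, and 5 to 9 in the other settings, except for 123 after rescaling to TPM, 0 with the replicate number as a replicate block (limma, with 958 at an unadjusted p under 0.05), and a range of 4 to 125 with each library left out in turn, the highest without KO replicate 1. Same-numbered libraries did not deviate together (correlations of -0.01, -0.08, -0.08 and 0.01, and 0 of 8 libraries correlated best with its own number). These values show no pairing by number but cannot exclude one, and the labels name none. These causes were not tested. In the TPM sums, Gm22953 in WT replicate 3 and Atg7 in KO replicate 4 hold large shares, and with both left out, an alternative added after the data were seen, 5 genes passed. TPM also raised the median pooled SD of the members to 0.497. The members' median log2 fold change ran from -0.22 to 0.05 with each library left out, and was above 0 without KO replicate 3 alone.

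Of 816 fold changes of members over the alternatives, 76 had the other sign than the value reported, and 14 members never changed sign. Under TPM these log2 fold changes were Col15a1 -0.17, Lamc1 -0.20, Hspg2 -0.073, Fn1 -0.11, Eln -0.14, Bgn -0.032, Loxl1 -0.20, Loxl2 -0.20, P4ha1 -0.19, and with Gm22953 and Atg7 left out of the sum Col15a1 -0.082, Lamc1 -0.11, Fn1 -0.021, Eln -0.060, Loxl1 -0.11, Loxl2 -0.11, P4ha1 -0.10. Under quantile normalization they were Lamc1 -0.021, Loxl1 -0.018, Loxl2 -0.013, P4ha1 -0.017, with equal medians Lamc1 -0.014, Loxl1 -0.018, Loxl2 -0.023, P4ha1 -0.0086, with array weights Lamc1 -0.015 and with a pseudocount of 0.1 FPKM Loxl2 -0.0004. With each library left out in turn, ranges crossed 0 for Col1a1 -0.34 to 0.061, Col1a2 -0.29 to 0.069, Col3a1 -0.38 to 0.20, Col5a1 -0.18 to 0.036, Col5a2 -0.32 to 0.10, Col5a3 -0.41 to 0.056, Col4a1 -0.31 to 0.16, Col4a2 -0.46 to 0.034, Col15a1 -0.17 to 0.18. They also did so for Col6a3 -0.29 to 0.055, Col12a1 -0.21 to 0.018, Lama2 -0.36 to 0.22, Lamc1 -0.048 to 0.15, Nid2 -0.22 to 0.10, Hspg2 -0.054 to 0.26, Fn1 -0.0009 to 0.21, Fbn1 -0.44 to 0.028, Eln -0.17 to 0.37. The remaining ranges were Sparc -0.26 to 0.11, Lum -0.099 to 0.14, Bgn -0.011 to 0.36, Loxl1 -0.12 to 0.15, Loxl2 -0.17 to 0.15, P4ha1 -0.086 to 0.095, Serpinh1 -0.16 to 0.10, Timp1 -0.023 to 0.56, Mmp2 -0.27 to 0.033. Low coverage limits Timp1 and Tnc most.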
